A study of Simmondsia chinensis with 44 samples.

Results

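Whole seeds of jojoba (Simmondsia chinensis) at mid stage were set against the seed coat that surrounds them, in all genes of the deposited count table. The 10 libraries, 5 of whole seed and 5 of seed coat, were chosen by their labels from the 44 seed libraries of the series. All came from 1 germplasm accession, PARL# 940, and no treatment is given. The same table holds 5 cotyledon and 5 embryonic axis libraries of the same stage, and a separate time course holds 6 libraries each of early, mid, late and dry seed. The labels do not say whether the libraries of a tissue came from separate plants or seeds, or how many seeds were pooled, and the spread behind every p-value is therefore only that between libraries, possibly technical.

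The seed coat is maternal tissue, grown from the integuments of the ovule, while cotyledons and axis belong to the embryo, the offspring of fertilisation. The coat passes sugars and amino acids from the mother plant to the embryo, and the cotyledons of jojoba fill with liquid wax esters instead of the usual triacylglycerol oil. A whole seed contains its own coat, so this comparison sets a mixture against 1 of its parts. In such bulk samples, fewer cells of a type and less RNA per cell cannot be told apart. The files do not pair gene identifiers with names or functions, so pathways could not be described, the tissues were not checked against marker genes, and at most 2 genes that were higher and 2 that were lower are named.

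Total counts ranged from 14184714 to 24116766 in whole seed and from 11771219 to 27511168 in seed coat. Levels are given as CPM, counts relative to the TMM-scaled library total, unless raw CPM, relative to the unscaled total, is stated. On the first 2 principal components of all 20 libraries of the table, which took 58.8% and 17.7% of the variance, every whole-seed library lay between the seed coat and the cotyledon libraries. On the third, which took 4.89%, the whole-seed libraries lay lowest of all, at -31.1 to -27.6. Seed coat library 3 lay at 67.7 there and the other seed coat libraries at -1.01 to 3.68. Counts of genes, stage profiles and named genes that depend on that library are given with and without it.

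Large differences between whole seed and seed coat ran almost entirely one way, towards higher levels in whole seed. In an exact mixture, whole seed keeps at least the coat's share of a gene's coat level, while a rise has no such bound. The comparison itself thus limited large falls, and the asymmetry is given as a description. Out of 18499 genes tested with edgeR's quasi-likelihood test (threshold 0.05 after Benjamini-Hochberg adjustment), whole seed exceeded seed coat for 2300 (12.4%) and fell below it for 1173 (6.34%), together 18.8%. The median log2 difference was 1.38 among the higher genes and -0.54 among the lower ones. A difference of 2-fold or more upward was reached by 1401 genes (7.57%), and one of that size downward by 110 genes (0.595%). At least 4-fold the counts were 867 and 7, and 390 genes were at least 16-fold higher. The whole-seed and coat libraries did not overlap for 1086 of the 1401 genes and for 87 of the 110 genes, where 17.8% of all genes tested showed no overlap in either direction.

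**Figure D1:**
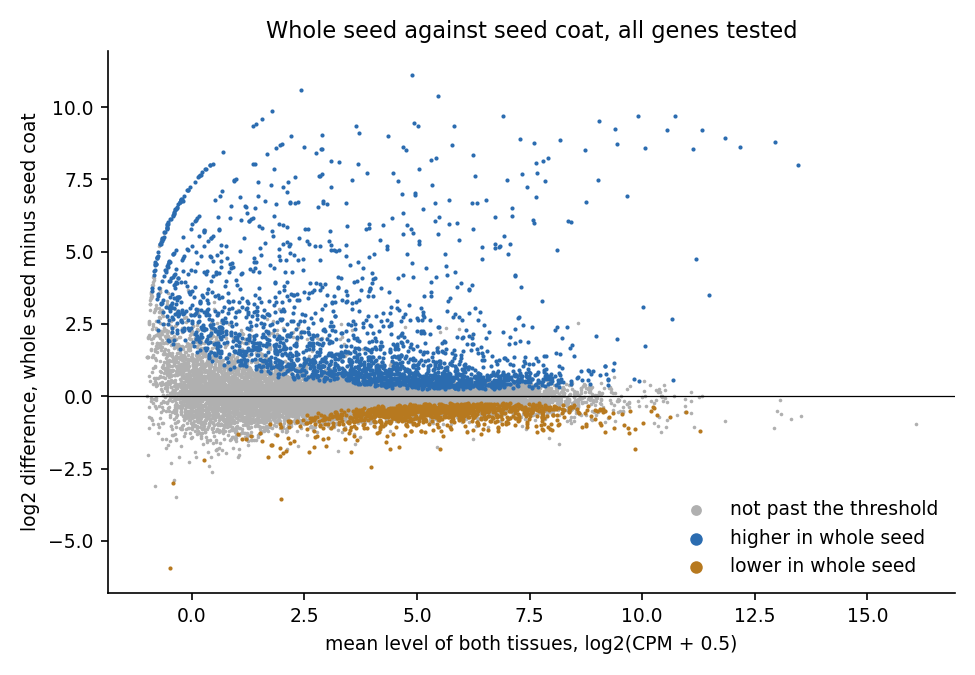
Each point is 1 of the 18499 genes tested, with the mean level of whole seed and seed coat on the x axis, as log2(CPM + 0.5), and the log2 difference, whole seed minus seed coat, on the y axis. The 2300 higher genes in blue reach a log2 difference of 11.09, while most of the 1173 lower genes in brown lie close to 0.

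The count of lower genes was less firm than that of higher genes. Without seed coat library 3, 2537 genes passed upward and 577 downward, of which 1392 upward and 56 downward by 2-fold or more. That library had the highest coat level of 639 of the 1173 lower genes and of 65 of the 110 genes at least 2-fold lower, beside 5249 of all 18499 genes. With 1 of seed coat libraries 1 and 2 or whole-seed libraries 2 to 5 left out, the count of lower genes was 588 to 746, and without whole-seed library 3 it was 644, with 70 of them at least 2-fold lower. With only whole seed and seed coat in the fit, 2250 genes were higher and 1637 lower.

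The 2 tails differed also in abundance. Among 1888 genes with a mean under 1 CPM over both tissues, 321 (17.0%) were higher and 0.159% lower in whole seed. The filter on low counts was applied over all 4 groups, so genes this low could enter through cotyledon or axis. Small falls could hardly be called at such counts, so nothing is read from the contrast in this class. Among 5328 genes at 1 to 10 CPM, 689 were higher and 96 lower. Among 9560 genes at 10 to 100 CPM, 1019 were higher and 835 lower, and among 70 genes at 1000 CPM and over, 15 were higher and 8 lower. Of those 70 genes, 14 were at least 2-fold higher, so large upward differences were present also among the most abundant genes.

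**Figure D2:**
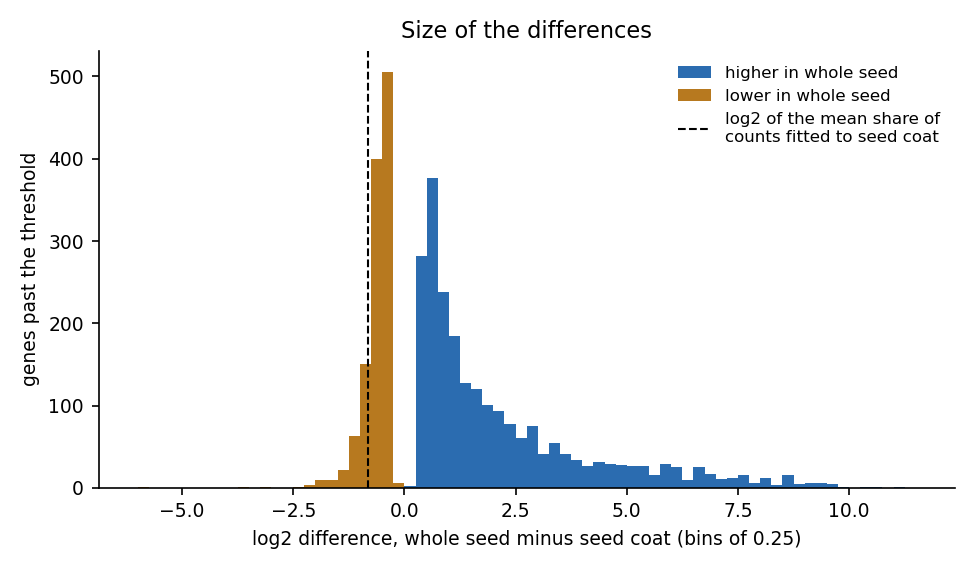
The histogram counts the genes past the threshold by log2 difference, whole seed minus seed coat, in bins of 0.25. Most lower genes lie between 0 and the dashed line, which marks the log2 of the mean share of whole-seed counts fitted to seed coat (56.3%), with few far below it, and the higher genes spread over a long tail.

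Over 50% of the counts of whole seed were fitted to seed coat in 4 of the 5 libraries. Each whole-seed library was fitted as a mixture of the mean profiles of coat, cotyledon and axis in raw CPM. The share fitted to seed coat was 60.3%, 63.2%, 45.2%, 50.3% and 62.1% in whole-seed libraries 1 to 5, a mean of 56.3% ± 8.0 (SD, n = 5). Libraries 3 and 4 were thus the ones with the least coat. The share fitted to cotyledon was 41.2% ± 9.7 and that fitted to embryonic axis 2.58% ± 2.46 (SD, n = 5). The fit took between 0.871 and 0.954 of the variance over genes, each gene being weighted down by the square root of its mean. These are shares of sequenced RNA, not of tissue mass.

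Genes preferred by each part gave a second reading of the same mixture. A gene was called preferred by a part when it was at least 4-fold higher there than in each other part, at an adjusted p under 0.05. The 619 coat-preferred genes stood in whole seed at a median of 58.1% ± 6.9 of their coat level (SD, n = 5 libraries). By library the medians were 62.3%, 64.7%, 48.1%, 53.9% and 61.6%, lowest again in libraries 3 and 4. The coat libraries served both to choose these genes and as the base of the ratio, so this is a description. Across the genes, the log2 ratio of raw CPM ran from -1.49 at the 5th percentile to -0.24 at the 95th. Of the 619, 171 passed the test as lower in whole seed and 0 as higher, where 6.34% of all genes were lower. The rule itself used the coat libraries, so nothing is read from that count. With 103 genes at least 16-fold higher in coat, the mean of the library medians was 47.8%, below the 56.3% fitted to coat. The nearness of 58.1% to the fitted share thus depended on the fold chosen. Genes of the 4-fold list can also receive counts from the other parts, which were not separated.

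The genes preferred by cotyledon and by axis stood below their dissected level to very different extents. The 231 cotyledon-preferred genes stood at 45.7% ± 9.95 of their cotyledon level, from 38.0% in library 1 to 62.1% in library 4. The 541 axis-preferred genes stood at 6.37% ± 1.73 of their axis level, from 3.45% in library 1 to 7.79% in library 4 (SD, n = 5). The mean share fitted to axis was lower, at 2.58%. Of the cotyledon-preferred genes 175 passed as higher in whole seed than in coat, and of the axis-preferred genes 144. Over all genes tested, 12.4% were higher. The other members of both lists did not pass. Again the choice of these genes used the coat libraries, so nothing is read from these counts.

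**Figure D3:**
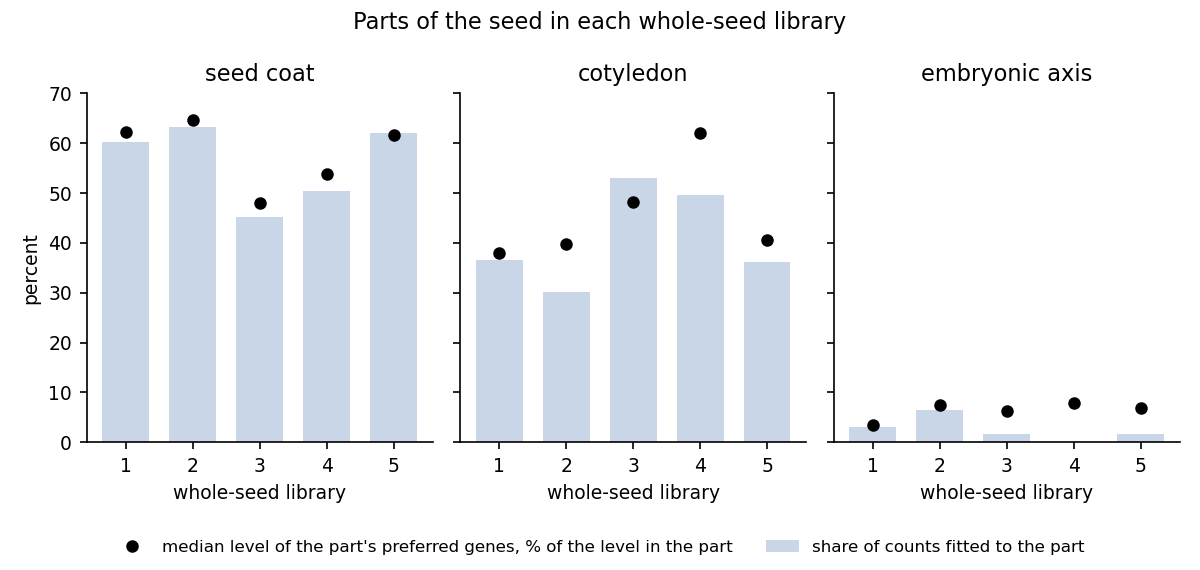
Bars give the percent of counts of each whole-seed library (x axis, libraries 1 to 5) fitted to seed coat, cotyledon and embryonic axis. Points give the median level of the genes preferred by that part, in percent of their level in the part. Both readings put the coat lowest in libraries 3 and 4. They differ for cotyledon, highest by the fit in library 3 (53.1%) and by its genes in library 4 (62.1%), and for axis in library 4, at 0% by the fit and 7.79% by its genes.

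No gene of whole seed was called outside the range of its dissected parts. For an exact mixture each gene lies between the lowest and the highest part, and a gene was tested as above or below that range by the largest of its 3 one-sided p-values. At an adjusted p under 0.05, 0 genes were above (0%) and 0 below (0%) by edgeR's quasi-likelihood test, with 10 above and 111 below at an unadjusted p under 0.05. DESeq2's Wald test also gave 0 in each direction, with 19 and 128 unadjusted. By means alone, whole seed lay within the range for 15461 of 18499 genes (83.6%), above it for 1023 and below it for 2015. Beyond the range by at least 1.5-fold lay 21 genes above and 78 below. A gene outside the range by less than the spread between libraries would not have been called.

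The genes higher in whole seed had similar median levels in both parts of the embryo. The 1401 genes at least 2-fold higher had a median level of 2.88 ± 0.20 in whole seed and 0.56 ± 0.29 in seed coat on the log2(CPM + 0.5) scale (SD, n = 5). In cotyledon that median was 3.83 ± 0.42 and in embryonic axis 3.86 ± 0.10. By library it was 2.70, 2.76, 3.11, 3.10 and 2.75 in whole seed, against 0.67, 0.71, 0.03, 0.68 and 0.71 in seed coat, and the tissues did not overlap. The highest whole-seed values were those of libraries 3 and 4, and the lowest coat value was that of library 3. These genes were chosen by this difference, so these levels describe them and test nothing.

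Cotyledon and axis were also compared for these genes, in the same fit, so the spread of all 20 libraries entered both the choice and the test. By edgeR's quasi-likelihood test, 455 of the 1401 genes (32.5%) were higher in cotyledon than in axis and 337 (24.1%) were lower, with 609 not called. Over all genes tested, 22.9% were higher and 20.5% lower. Among the 390 genes at least 16-fold higher in whole seed, 128 (32.8%) were higher in cotyledon and 102 (26.2%) lower. The share higher in cotyledon was thus above that of all genes, and the share higher in axis was nearer to it. Whole-seed counts were fitted to cotyledon at 41.2% and to axis at 2.58%. Choosing genes high in whole seed against coat thus favoured genes high in cotyledon, and nothing is read from this contrast. With the genes chosen in a fit of whole seed and seed coat alone, and cotyledon and axis tested in a fit of their own, 429 of 1133 genes (37.9%) were higher in cotyledon and 283 (24.98%) lower, beside 21.3% and 20.8% of all genes. This second pair of fits was added after seeing the data, and it leaves that bias of the choice in place. Among the 1173 genes lower in whole seed than in coat, 308 (26.3%) were higher in cotyledon than in axis and 225 (19.2%) lower. In the separate fits these shares differed, with 346 of 1590 lower genes (21.8%) higher in cotyledon and 195 (12.3%) lower. There the cotyledon share was close to that of all genes and the axis share was below it.

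In the time course, which shares no library with the comparison, the genes higher in whole seed were mostly genes that rose from early to mid seed. Of the 1321 that could be tested there, out of 1401 at least 2-fold higher in whole seed, 891 (67.4%) rose and 61 (4.62%) fell from early to mid seed by edgeR's quasi-likelihood test. Over all 17872 genes tested in both tables, 26.3% rose and 23.6% fell. With the genes chosen without seed coat library 3, 906 of 1312 (69.1%) rose and 50 (3.81%) fell. The median log2 change of the 1321 genes was 1.501, against 0.02 over all genes. Among the genes at least 16-fold higher in whole seed, 349 could be tested, of which 286 (81.9%) rose, at a median log2 change of 3.69.

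From mid to late seed the 1321 genes were more evenly split between rises and falls. There 488 (36.9%) rose and 356 (26.9%) fell, beside 27.7% and 29.7% of all genes, and the median log2 change was 0.23. Of the 349 genes at least 16-fold higher in whole seed, 178 (51.0%) rose and 56 (16.05%) fell, at a median log2 change of 0.92. Into dry seed, 348 of the 1321 genes (26.3%) rose and 718 (54.4%) fell, beside 36.7% and 43.7% of all genes, at a median log2 change of -1.15 against -0.14 over all genes. Their median level was 1.93 ± 0.15 in early, 3.41 ± 0.06 in mid, 3.62 ± 0.09 in late and 2.28 ± 0.06 in dry seed on the log2(CPM + 0.5) scale (SD, n = 6). Over the same 1321 genes the median level was 3.09 ± 0.20 in mid-stage whole seed and 0.74 ± 0.30 in seed coat (SD, n = 5), but the tables were scaled separately and levels were not tested across them.

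**Figure D4:**
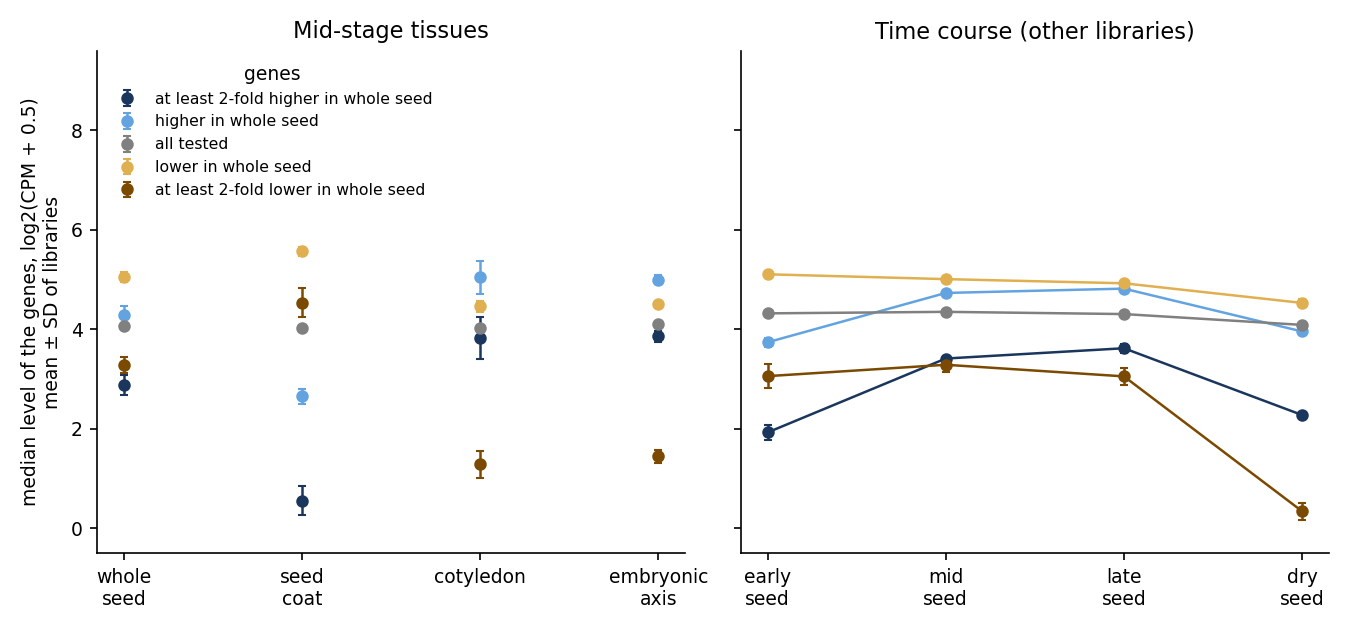
Points give the median level of each class of genes, in log2(CPM + 0.5), as the mean ± SD over 5 libraries of a mid-stage tissue (left) or 6 libraries of a time-course stage (right, other libraries, scaled separately, and only the genes tested there). The genes at least 2-fold higher in whole seed lie at 2.88 in whole seed and 0.56 in seed coat (1401 genes) and at 3.62 in late seed (1321 of them), and those at least 2-fold lower lie at 0.34 in dry seed (106 of 110 genes).

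Most of the genes at least 2-fold lower in whole seed than in coat fell into dry seed. Of the 110 genes at least 2-fold lower, 106 could be tested in the time course. From early to mid seed 29 (27.4%) rose and 23 (21.7%) fell, close to the 26.3% and 23.6% of all genes. From mid to late seed 20 (18.9%) rose and 49 (46.2%) fell, where 29.7% of all genes fell. Into dry seed 14 (13.2%) rose and 81 (76.4%) fell, where 43.7% of all genes fell, and the median log2 change was -2.82. With the genes chosen without seed coat library 3, 54 of 56 could be tested. Of these, 19 (35.2%) rose and 12 (22.2%) fell from early to mid seed, 28 (51.9%) fell from mid to late seed, and 44 (81.5%) fell into dry seed. Over the 106 genes of the full choice the median level was 3.41 ± 0.22 in whole seed and 4.65 ± 0.29 in seed coat on the log2(CPM + 0.5) scale (SD, n = 5). It was 3.06 ± 0.24 in early, 3.29 ± 0.15 in mid, 3.05 ± 0.18 in late and 0.34 ± 0.18 in dry seed (SD, n = 6). The labels do not say whether dry seeds kept their coat, and its part in these falls was not tested. The wider class held 1173 lower genes, of which 1169 could be tested. From early to mid seed 244 of these (20.9%) rose and 338 (28.9%) fell, where 26.3% of all genes rose and 23.6% fell. With the genes chosen without seed coat library 3, 139 of 575 (24.2%) rose and 163 (28.3%) fell, beside 26.2% and 23.5% of all genes. Falls outnumbered rises in either choice, by less without that library.

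More genes were detected in whole seed than in seed coat. A whole seed holds coat and embryo, so the comparison itself favoured this direction, and the difference is given as a description. At 1 raw CPM or more, 16315, 16855, 16612, 16740 and 16570 genes were detected in whole-seed libraries 1 to 5, against 16126, 16169, 15435, 16190 and 16410 in seed coat libraries. Library 1 of whole seed lay under the highest coat library, and coat library 3 lay far under the rest. The means were 16618 ± 203 and 16066 ± 369 (SD, n = 5). A two-sided exact permutation test gave p = 0.0159 and an adjusted p of 0.0317 over 2 measures, where the smallest p these libraries allow is 0.00794. Without seed coat library 3 the difference of 552 genes became 395, at an adjusted p of 0.0635 by the same exact test, and the test gave this p also without any 1 of seed coat libraries 1, 2 and 4 or whole-seed libraries 2 to 5. In those cases the difference itself stayed at 493 to 583 genes. It was 628 without whole-seed library 1 and 638 without seed coat library 5, where the test still passed (adjusted p = 0.0317, exact test). With 1 library left out the exact test has fewer splits, and its adjusted p took only the values 0.0317 and 0.0635. The 100 most counted genes took 28.6% ± 2.9 of whole-seed counts and 29.4% ± 1.2 of seed coat counts (SD, n = 5), and the adjusted p of the same exact test was 0.595.

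The genes named here had the largest differences among those past the threshold with at least 10 CPM in the higher tissue and no overlap between tissues, a rule met by 1157 higher and 733 lower genes. Sc18g0002680 had 54.4, 1.37, 128, 95.6 and 9.91 CPM in whole-seed libraries 1 to 5. In seed coat it had 1 count each in libraries 4 and 5 and 0 in the others, which left 2 counts against 5624 in whole seed. The pooled ratio was 2818, with a 95% interval of 779.7 to 23274 for counting error only, and the edgeR adjusted p was 3.78e-06. Its level thus varied widely within whole seed and was all but absent from coat. It averaged 53.7 ± 31.8 CPM in cotyledon and 0.315 ± 0.426 in embryonic axis (SD, n = 5), and of the dissected parts cotyledon was the highest. The whole-seed mean was 57.8 ± 54.4 CPM, and whole-seed libraries 3 and 4 exceeded the highest cotyledon library, at 94.7 CPM. The gene was not called above the range of the parts.

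Sc18g0002680 was also uneven in the time course. It had 0 counts in all 6 early libraries, 16.7 ± 21.4 CPM in mid seed with a range of 0.197 to 52.9, 3.99 ± 5.93 in late seed and 0.0120 ± 0.0293 in dry seed (SD, n = 6). The mid level passed against early seed and the dry level against late seed (edgeR adjusted p = 0.000444 and 0.00172), while late against mid seed did not (adjusted p = 0.111).

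Sc23g0003750 was steadier. It had 70.3, 78.2, 122, 91.5 and 75.2 CPM in whole seed, against 3 counts each in seed coat libraries 1 and 5 and 0 in the other coat libraries. The log2 difference was 10.36 ± 0.98 (SE, edgeR adjusted p = 7.06e-08), and the pooled ratio was 1478 with a 95% counting interval of 679 to 4029.7. It averaged 177 ± 63 CPM in cotyledon and 5.26 ± 6.40 in axis (SD, n = 5). Both genes that were highest in whole seed relative to coat thus had their highest dissected level in cotyledon. In the time course Sc23g0003750 stood at 8.30 ± 4.60 CPM in early, 71.2 ± 5.9 in mid, 48.8 ± 6.3 in late and 6.09 ± 2.45 in dry seed (SD, n = 6), a log2 rise of 3.10 ± 0.41 from early to mid seed (SE, edgeR adjusted p = 1.15e-06).

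Sc08g0000850 had 2.79, 5.26, 7.85, 4.01 and 3.57 CPM in whole seed, against 16.9, 8.91, 52.3, 25.6 and 26.2 CPM in seed coat. The tissues did not overlap, but coat library 3 was far above the other coat libraries. The log2 difference was -2.46 ± 0.70 (SE, edgeR adjusted p = 0.0169), and without coat library 3 it was -1.996 and no longer passed (adjusted p = 0.0680). The gene averaged 1.98 ± 3.53 CPM in cotyledon and 0.462 ± 0.246 in axis (SD, n = 5). The cotyledon mean rested on library 5 with 8.24 CPM, the other 4 cotyledon libraries having 0.114 to 1.10 CPM and a mean of 0.412. Through the time course it stood at 3.96 ± 2.50 CPM in early, 7.32 ± 2.22 in mid, 19.5 ± 8.2 in late and 0.0639 ± 0.0978 in dry seed (SD, n = 6). It rose from mid to late seed (log2 change 1.42 ± 0.37, SE, edgeR adjusted p = 0.00200) and fell into dry seed (log2 change -7.97 ± 0.58, SE, edgeR adjusted p = 3.92e-12).

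Sc12g0010110 had 7.07, 2.83, 2.53, 4.79 and 6.02 CPM in whole seed, against 12.8, 16.2, 36.4, 10.9 and 11.5 CPM in seed coat. Coat library 3 was again the highest, and the tissues did not overlap. The log2 difference was -1.92 ± 0.41 (SE, edgeR adjusted p = 0.00192), and without coat library 3 it was -1.43 (adjusted p = 0.00920). It averaged 1.16 ± 0.60 CPM in cotyledon and 0.971 ± 0.348 in axis (SD, n = 5), under the whole-seed mean of 4.65 ± 1.97. Reads may be split between copies of a gene with nearly the same sequence, and reads of overlapping antisense genes may be mixed, which limits each value of a single gene.

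**Figure D5:**
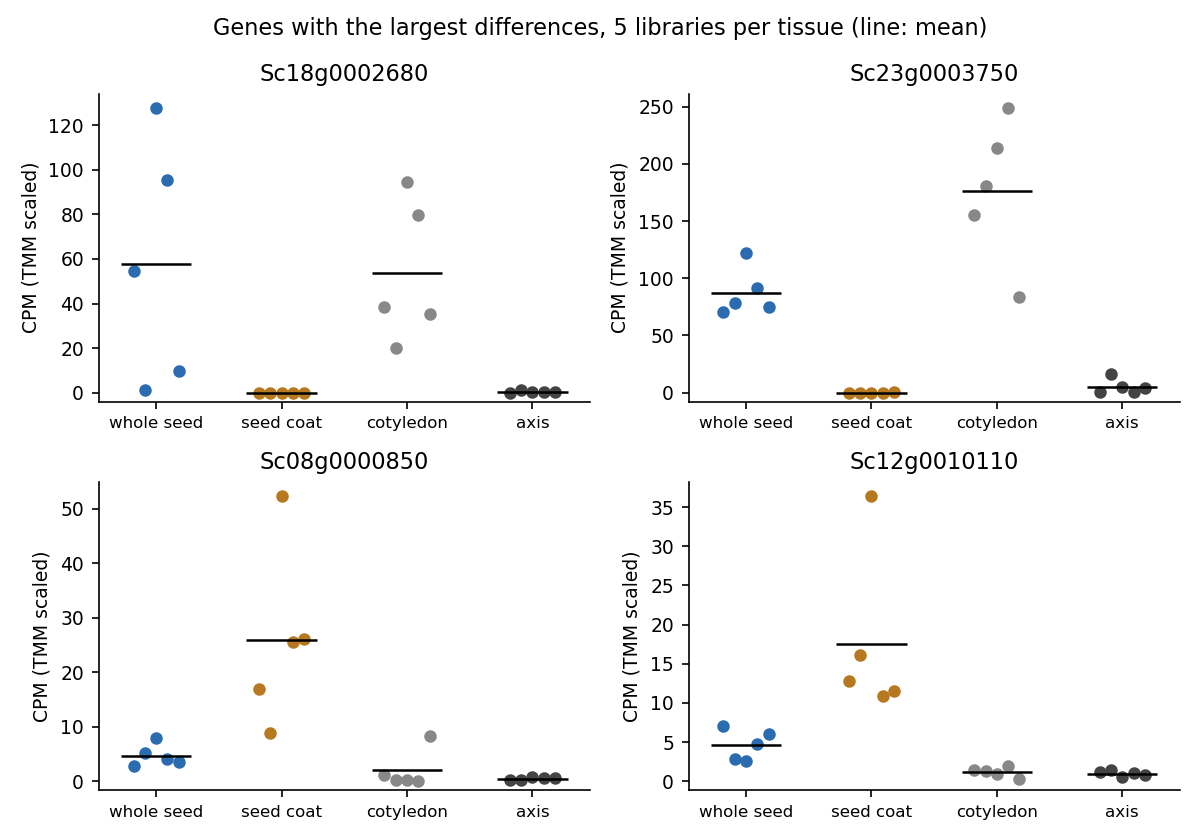
Each point is the CPM of 1 library, 5 per tissue, and each line a mean. The upper panels show Sc18g0002680 and Sc23g0003750, high in whole seed and cotyledon and near 0 in seed coat, and the lower panels show Sc08g0000850 and Sc12g0010110, highest in seed coat with library 3 on top (52.3 and 36.4 CPM).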

How the data were processed

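Hot-borate RNA extraction and a strand-specific mRNA kit are named per the labels' protocols. Trimmomatic, STAR and DESeq2 are named without versions, per the submitters' processing notes. How reads were counted, on which genome build and with which strand setting is not given in the sources used here. Whole-number read counts per gene were deposited by the authors without normalization, over 23491 genes. The authors' normalized tables were not used. Libraries of 1 tissue differed by more than sampling noise, with chi-square per degree of freedom at or above 33.4 in whole seed and 10.9 in seed coat, so none was counted as a duplicate.

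The test was edgeR 4.0.16 in R 4.3.3 with TMM scaling, filterByExpr, estimateDisp, glmQLFit and glmQLFTest, with 4 groups and 20 libraries in 1 fit and Benjamini-Hochberg adjustment at 0.05. The time course was fitted alike. SEs were derived from the F statistic. Range tests took the largest of 3 one-sided p-values. Mixtures used non-negative least squares in scipy 1.17.1. The fits were checked on simulated counts. Intervals and floors cover counting error only.

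Alternatives were DESeq2 1.42.0, other scalings, no filter, a replicate block, only the 2 tissues, and each library left out. The named-gene rule takes the 2 genes per direction with the largest fitted log2 difference, among those past the threshold with at least 10 CPM in the higher tissue and no overlap between tissues. Planned lists of wax, storage, coat, endosperm and wounding genes need gene names and were not used. The comparison, lists and rules were chosen with earlier results of these data known. Depth ranged from 9882334 to 32758764 counts in the dissected and whole seeds and from 7713214 to 23773845 in the time course.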

Additional observations from a re-analysis of the deposited data

Results flagged for a closer look

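Of 30 sets of 5 values examined, 5 were flagged, and in each of them seed coat library 3 stood apart from the other 4 coat libraries. Most of the 30 sets held whole-seed values only, so this library could not stand apart in them. Chance gives about 1 flag in 20 sets, and many of the sets share genes. Sc12g0010110 had 36.4 CPM in this library and 10.9 to 16.2 in the other coat libraries. On the log2(CPM + 0.5) scale, the median over genes higher in whole seed was 2.39 there and 2.69 to 2.75 in the others, and over genes at least 2-fold higher it was 0.0327 there and 0.67 to 0.71 in the others. The median over genes lower in whole seed was 5.73 there and 5.51 to 5.57 in the others. Over all genes tested it was 3.98 there and 4.03 to 4.05 in the others. Total counts of this library lay within the range of the coat libraries, and why it differs was not tested.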

How the results depend on the processing

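Higher genes held within 1.5 times their count of 2300, and 1401 at 2-fold, under every alternative run. Lower genes did not: against 1173 there were 695 with no filter on low counts, and 577 to 966 with 1 library left out at a time. At 2-fold, 56 to 129 against 110 were lower with 1 library left out. DESeq2 gave 2759 higher and 1388 lower genes. On the first principal component, cotyledon libraries 1 and 5 lay at -31.5 and -12.4 and the other cotyledon libraries at -83.0 to -53.0. Leaving out coat library 3 and cotyledon libraries 1 and 5 together, chosen after seeing the data, gave 2688 and 1621. The cause was not tested. The replicate block gave 2213 higher and 1051 lower genes and changed no call of a named gene. Same-numbered whole-seed and coat libraries deviated together at correlations of -0.16 to 0.26, and 1 of 5 correlated best with its own number, so the numbers were not taken as pairs.

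The difference in genes detected was 395 to 638 with 1 library left out, and 8 of these 10 cases missed the threshold (exact permutation test, adjusted p = 0.0635). The test has fewer splits with 1 library left out, and the lowest adjusted p reached there was 0.0317 (exact permutation test). Missing the threshold is therefore not read as a smaller difference. For the 10 most counted genes the whole-seed share was lower by 3.22 points (exact permutation test, difference -3.22, adjusted p = 0.0397). The ratio of coat-preferred genes was 47.8% at 16-fold. The share fitted to seed coat moved by less than 1 SD under its 10 alternatives, at most to 61.7% with genes unweighted. That SD is a spread between libraries, not between methods. Of these 10, 1 left out genes outside the range of the parts, which removed no gene, so it checks nothing. The count of 2-fold higher genes that rose from early to mid seed was 797 to 938 over all settings, against 891. Of the 2-fold lower genes, 81 fell into dry seed, and 44 with the genes taken without coat library 3 (chosen after seeing the data). No gene was called outside the range of the parts under any of the 25 settings (adjusted p under 0.05). Depth limits genes near the floor of 3 counts per library.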

Other observations

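For each tissue, the genes with a larger mean share of counts there exceeded the other tissue by 19.4% of all counts in sum. Of that excess, 50% came from 21 genes in whole seed and from 37 genes in seed coat. In 42 of the 23491 genes in the table, every whole-seed library had counts and no seed coat library had any, and 13 of these averaged at least 1 raw CPM in whole seed, with 10.03 as the highest mean. The converse, counts in every seed coat library and none in whole seed, was found for 0 genes. Whole seed contains its own coat, so the comparison itself made such genes unlikely, and nothing is read from this contrast. Another 2021 genes had no count in either tissue. Over genes, the median SD of log2(CPM + 0.5) between libraries was 0.22 in whole seed and 0.27 in seed coat. It was 0.35 in cotyledon and 0.20 in embryonic axis, which were part of the same fit.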
